A study of Mus musculus with 27 samples.

Results

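The hepatocyte identity transcription factors were followed through the whole study as 9 genes, Hnf4a, Foxa1, Foxa2, Foxa3, Cebpa, Cebpb, Onecut1, Nr5a2 and Prox1. They were chosen by name, as the rows of the count table whose Ensembl identifiers carry these symbols, with earlier results of these data known. All 9 were found among the 55414 genes of the table, and all 9 passed the low-count filter that left 14114 genes for testing.

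The data were poly(A) RNA sequencing of whole liver homogenate from 27 female Balb/c mice of 8 weeks. Of these, 14 received intraperitoneal CCl4, a hepatotoxin that is made reactive in hepatocytes and causes fibrosis, for 2 weeks, and 13 received olive oil in its place. The 8 groups were control (olive oil and tail vein PBS, n = 4), 4MU (n = 3), siLuc (n = 3), siHAS2 (n = 3), CCl4 (n = 2), CCl4+4MU (n = 4), CCl4+siLuc (n = 4) and CCl4+siHAS2 (n = 4). 4MU (4-methylumbelliferone), an inhibitor of hyaluronan synthesis, was given daily by gavage at 600 mg/kg. siHAS2 is a siRNA against hyaluronan synthase 2 in lipid nanoparticles, injected into the tail vein at 1 mg/kg and then at 0.5 mg/kg, and siLuc, the non-targeting control, is a siRNA against luciferase in such particles. Has2 itself was at 0 counts in 25 of the 27 libraries, with at most 2 counts, so the knockdown could not be checked in these libraries of whole liver.

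Hepatocyte identity is held by a small set of factors that bind each other's genes and the same liver enhancers. HNF4A is a nuclear receptor on which much of the hepatocyte programme depends, the FOXA proteins are pioneer factors that open liver chromatin, CEBPA drives metabolic genes of the resting hepatocyte, and CEBPB serves the acute-phase response and regeneration. ONECUT1 (HNF6) acts in liver and bile duct development, NR5A2 (LRH-1) governs bile acid and cholesterol genes, and PROX1 is a homeobox factor of hepatocytes and of lymphatic endothelium.

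Averaged over the 4 arms of the study, CCl4 mice had less Cebpa (1.57-fold lower), Foxa3 (1.29-fold), Nr5a2 (1.26-fold) and Foxa2 (1.22-fold) RNA, while Hnf4a, Foxa1, Cebpb, Onecut1 and Prox1 did not pass the test. In this average 51.7% of all tested genes passed and 25.5% were lower, so calls were no more common among the members. With library totals in place of TMM scaling only Cebpa passed. Among the CCl4 mice, Foxa2 was higher with 4MU and with siHAS2 than with CCl4 alone (1.76- and 1.87-fold), and was at 1.82-fold with siLuc, which passed in DESeq2 and not in edgeR. Cebpb was higher with 4MU (2.50-fold), and Prox1 was higher with siHAS2 (1.66-fold). The Foxa2, Cebpb and Prox1 values are all against only 2 mice with CCl4 alone, and each edgeR call depended on CCl4 mouse 2. Against CCl4 alone 18.1% of all genes passed with 4MU, 14.3% with siHAS2 and 0.262% with siLuc. Between siHAS2 and siLuc in CCl4 mice 0 of 9 members passed, where 1.08% of all genes passed. Without CCl4, none of the 9 passed for 4MU or siLuc against control, or for siHAS2 against siLuc. In these 3 comparisons 0.00709%, 0.205% and 0.0638% of all genes passed. siHAS2 was not tested against control.

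The start regions of these genes are shown because 3 of the 4 carry letters of motifs known for liver factors, and because these genes ranged here from the largest average fall (Cebpa) to a value near 0 (Hnf4a). The sequences are RefSeq promoters, of 250 bases before to 50 after a start site, and were placed on GRCm39 by exact match. Of the 14 such promoters of the 9 genes, 4 of them follow, each 5′ to 3′ on the gene's strand, with motif matches in capitals.
Hnf4a, chr2:163348527-163348826, + strand: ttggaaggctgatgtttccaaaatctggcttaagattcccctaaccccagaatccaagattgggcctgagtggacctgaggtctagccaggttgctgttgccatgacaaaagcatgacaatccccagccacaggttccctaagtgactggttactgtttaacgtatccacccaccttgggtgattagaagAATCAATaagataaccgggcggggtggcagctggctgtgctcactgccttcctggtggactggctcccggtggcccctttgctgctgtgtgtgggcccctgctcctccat
Foxa2, chr2:147888840-147889139, - strand: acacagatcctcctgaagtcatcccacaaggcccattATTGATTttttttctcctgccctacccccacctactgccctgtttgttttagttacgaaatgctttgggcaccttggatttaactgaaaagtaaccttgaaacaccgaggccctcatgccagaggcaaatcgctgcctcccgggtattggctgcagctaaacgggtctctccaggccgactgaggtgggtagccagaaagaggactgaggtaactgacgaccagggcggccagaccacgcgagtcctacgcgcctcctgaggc
Nr5a2, chr1:136888137-136888436, - strand: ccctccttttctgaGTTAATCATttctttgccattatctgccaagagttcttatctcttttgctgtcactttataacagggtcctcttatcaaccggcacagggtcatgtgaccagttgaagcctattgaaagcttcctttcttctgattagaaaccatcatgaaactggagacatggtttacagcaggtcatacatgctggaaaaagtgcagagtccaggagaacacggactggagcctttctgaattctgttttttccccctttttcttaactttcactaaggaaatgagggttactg
Cebpa, chr7:34818468-34818767, + strand: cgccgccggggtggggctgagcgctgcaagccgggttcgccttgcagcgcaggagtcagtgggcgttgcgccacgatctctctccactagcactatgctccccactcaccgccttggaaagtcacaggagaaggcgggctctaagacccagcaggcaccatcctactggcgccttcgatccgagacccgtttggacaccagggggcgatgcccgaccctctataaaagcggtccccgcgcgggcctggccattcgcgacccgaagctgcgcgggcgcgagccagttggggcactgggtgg

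The motifs were searched on both strands. The ONECUT motif ATNGATT lies at -60 on the opposite strand of the Hnf4a promoter printed and at -213 of the Foxa2 promoter printed. Positions are counted from the start site at +1, and 7.42% of 32851 promoters hold this motif. The HNF1 motif GTTAATNAT begins at -236 of the Nr5a2 promoter printed and is held by 0.801% of promoters. The other promoters of Hnf4a (chr2:163388825-163389124), Foxa2 and Nr5a2 held 0 matches to any motif searched. Which start sites these livers used was not tested. The forkhead motif TGTTTAC (3.65% of promoters) was found in a single member, Foxa1, at -141 on the opposite strand. The letters CAAAGTCCA for HNF4A (0.475%), TTGCGNAA for C/EBP (0.798%) and CAAGGNCA for NR5A2 (6.71%) were in none of the 14 member promoters, and no motif searched lay in the Cebpa promoter printed. No motif overlapped another in these windows.

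**Figure D1:**
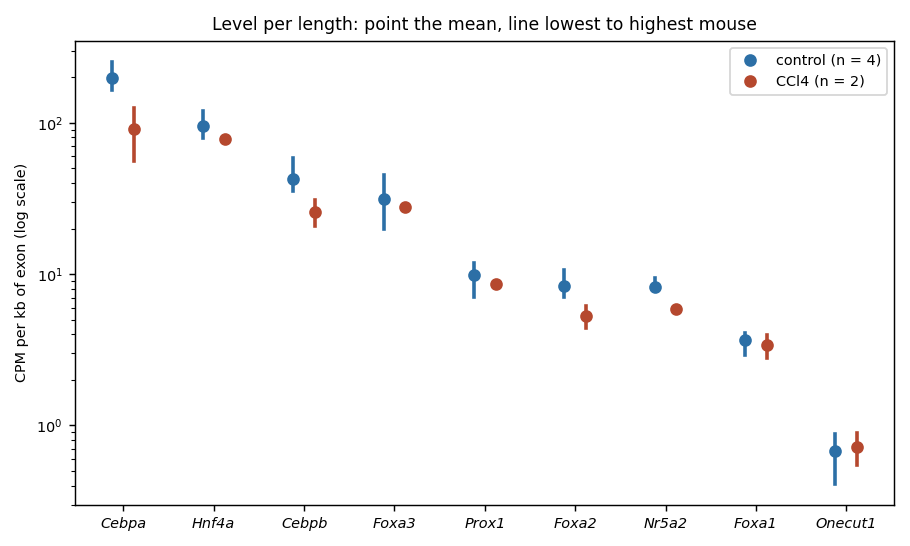
Level of each member per length, as CPM (the count scaled to a common library size) per kilobase of exon on a log axis, in control mice (blue, n = 4) and CCl4 mice (red, n = 2). Points are means and lines run from the lowest to the highest mouse. Cebpa and Hnf4a stand above the other members and Onecut1 lies lowest in both groups.

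In control livers Cebpa was the most abundant member per length, at 198 ± 40.5 CPM per kb of exon (SD, n = 4), and its mice (165 to 253) lay above those of Hnf4a (79.7 to 119). Cebpb followed at 42.8 ± 10.7 and Foxa3 at 31.2 ± 10.3, and these neighbours overlapped (35.2 to 58.6 and 19.7 to 44.9). Prox1, Foxa2 and Nr5a2 lay together at 9.88 ± 2.23, 8.40 ± 1.58 and 8.17 ± 0.838, with overlapping mice, and their order changed when the longest transcript was used as the length, which put Nr5a2 at 13.7 ahead of Prox1. Foxa1 at 3.64 ± 0.511 and Onecut1 at 0.680 ± 0.228 were lowest, each below the range of the member before it. In the CCl4 mice, as the plot of levels per kilobase shows, Cebpb and Foxa3 changed places, as did Foxa2 and Nr5a2. CPM here are scaled by TMM factors (trimmed mean of M-values) as well as by library totals, and the totals were 7044386 to 29425937 counts. Onecut1, with 35 to 260 counts per library, was the least precisely measured member.

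The livers carried the hepatocyte markers at high level. The 12 of them (Alb, Ttr, Trf and others) summed to 119800 to 256000 CPM in CCl4 mice and 174400 to 250700 in the others, while the summed level of 6 exocrine pancreas markers, 1 of them at 0 in all libraries, was between 0 and 0.214 CPM. No other marker listed was at 0 in all libraries. Bile duct markers were at 127 to 716 CPM in CCl4 mice against 47.0 to 95.3, cell cycle genes at 37.5 to 508 against 1.33 to 25.2, and stellate cell and fibroblast genes at 271 to 938 against 179 to 368. Monocyte and macrophage genes were at 152 to 596 against 78.2 to 303 CPM, lymphatic genes at 5.88 to 16.2 against 3.25 to 10.2 and Kupffer cell genes at 89.2 to 381 against 150 to 458. Sinusoidal genes covered nearly the same range, 69.2 to 158 against 56.7 to 156 CPM. In these bulk samples fewer hepatocytes and less RNA per hepatocyte cannot be told apart. The part of these marker levels in the results that follow was not tested. The library farthest from the others of its group was siLuc mouse 1, followed by CCl4+siLuc mouse 4, and CCl4+siHAS2 mouse 4 had the lowest total.

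**Figure D2:**
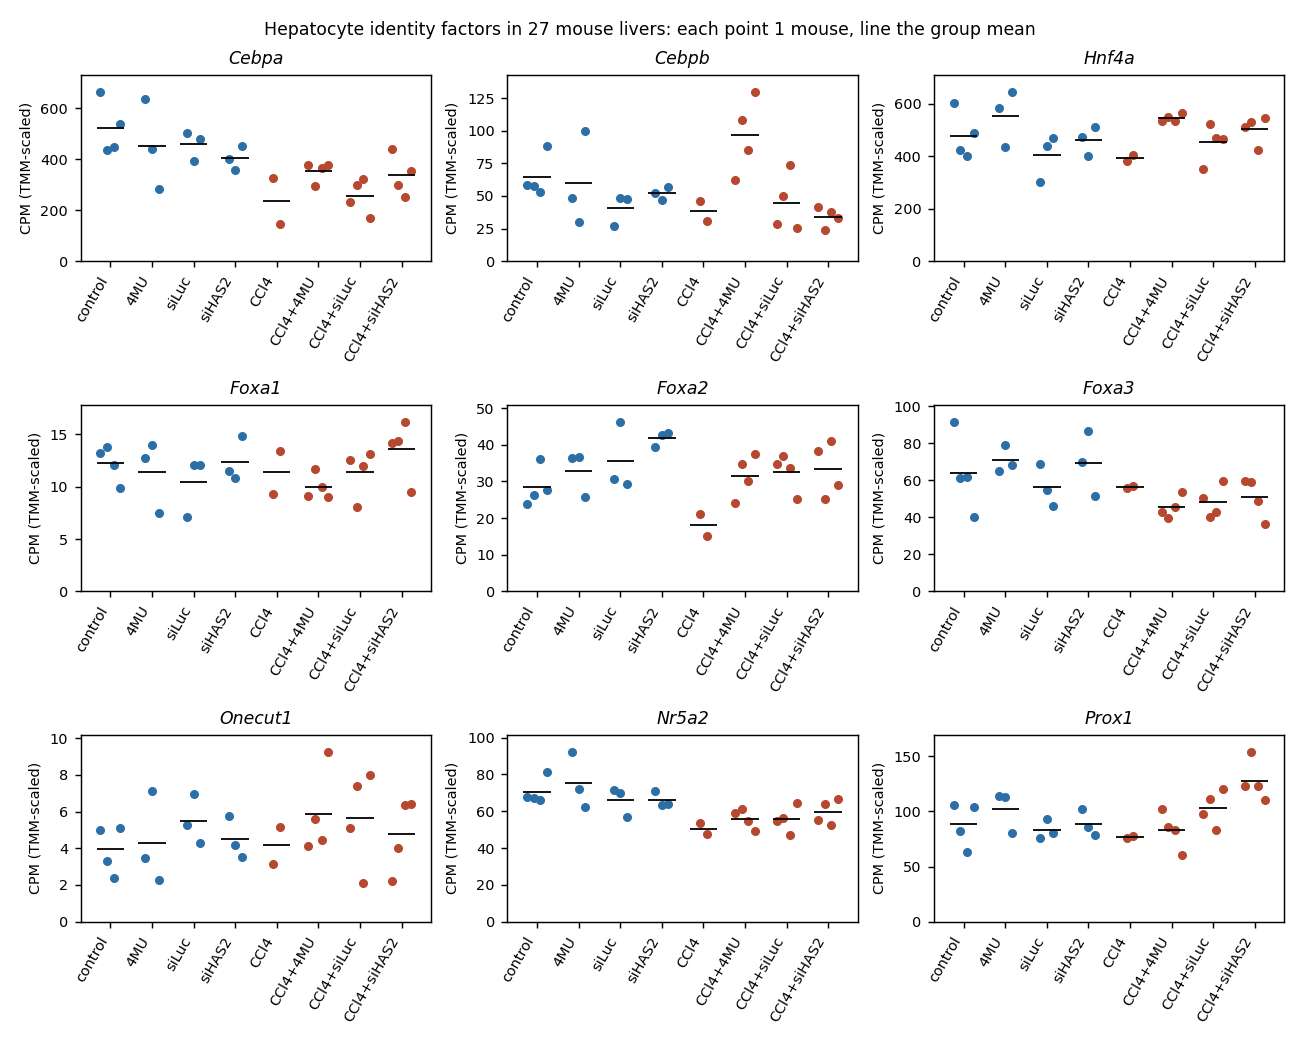
Expression of each member in the 27 livers. Each panel is 1 gene, each point 1 mouse (blue without CCl4, red with CCl4), the line the group mean and the axis CPM on TMM-scaled totals from 0. Cebpa runs from 148 CPM in a CCl4 mouse to 666 CPM in a control mouse, and Foxa2 is lowest in the 2 CCl4 mice.

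The question of the first comparison was whether CCl4 changes these factors when all treatments are averaged, with each of the 4 arms weighted equally. Of the 9 members, 4 were lower and 0 higher at an adjusted p under 0.05, in a comparison where 51.7% of all tested genes passed and 25.5% were lower. The members' share of 4 in 9 was thus near that of the genes at large, and all 4 were lower. Their median log2 fold change was -0.13, beside -0.015 over all genes tested.

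Cebpa (ENSMUSG00000034957, chr7:34818718-34821353, + strand) fell by 0.65 on the log2 scale (SE 0.14, adjusted p = 0.00034, edgeR quasi-likelihood test), to 0.637 of its level without CCl4. It lay at 148 to 440 CPM with a median of 310 in the 14 CCl4 mice, and at 283 to 666 with a median of 447 in the 13 others. The sets overlapped, since 4 CCl4 mice lay below all others and 8 of the others lay above all CCl4 mice. Cebpa passed the test under all 34 alternative settings and left-out mice, with log2 fold changes of -0.81 to -0.50.

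Nr5a2 (ENSMUSG00000026398, chr1:136770303-136888186, - strand) fell by 0.33 (SE 0.074, adjusted p = 0.0006). Its CCl4 mice lay at 47.1 to 66.6 CPM with a median of 55.0, and the others at 57.1 to 92.2 with a median of 67.6. Here 9 of the 14 CCl4 mice lay below all mice without CCl4, more than for any other member.

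Of the FOXA genes, Foxa3 and Foxa2 passed in this average and Foxa1 did not. Foxa3 (ENSMUSG00000040891, chr7:18747209-18757471, - strand) fell by 0.37 (SE 0.11, adjusted p = 0.0087), with 36.7 to 59.9 CPM in CCl4 mice and 40.4 to 91.7 in the others. Foxa2 (ENSMUSG00000037025, chr2:147884797-147889005, - strand) fell by 0.29 (SE 0.11, adjusted p = 0.024), with 15 to 41.1 CPM against 23.9 to 46.3. For Foxa2 only 2 of the CCl4 mice, those without further treatment, lay below all others. Its call was lost without CCl4 mouse 2 (-0.23, adjusted p = 0.104) and without siLuc mouse 2 (-0.23, adjusted p = 0.061). Foxa1 (ENSMUSG00000035451, chr12:57587414-57593702, - strand) had a log2 fold change of -0.0077 (95% interval -0.25 to 0.24), with 8.10 to 16.2 CPM against 7.15 to 14.8. Differences between the FOXA genes were not tested.

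Hnf4a (ENSMUSG00000017950, chr2:163348728-163414830, + strand) had a log2 fold change of -0.0031 (SE 0.092, adjusted p = 0.982), and the 95% interval of -0.20 to 0.19 bounds the average change of its RNA. It lay at 352 to 563 CPM with a median of 517 in CCl4 mice and at 301 to 646 with a median of 469 in the others. The remaining members were wider. Cebpb (ENSMUSG00000056501, chr2:167530835-167532338, + strand) had -0.13 (95% interval -0.53 to 0.26), Onecut1 (ENSMUSG00000043013, chr9:74769118-74800594, + strand) had 0.16 (-0.30 to 0.62) and Prox1 (ENSMUSG00000010175, chr1:189850232-189904637, - strand) had 0.079 (-0.12 to 0.28).

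These fold changes are relative to TMM scaling. With library totals alone the median of all genes moved to 0.16 on the log2 scale, 1 member passed (Cebpa, -0.50), Nr5a2 (-0.15), Foxa3 (-0.19) and Foxa2 (-0.12) did not, and Hnf4a, Foxa1 and Cebpb had values above 0. Relative to that median the values were -0.66 for Cebpa, -0.31 for Nr5a2, -0.35 for Foxa3, -0.28 for Foxa2 and 0.010 for Hnf4a. Subtracting the median centres the genes near 0 much as TMM does, so these values are no separate check on it. Ratios within a library do not depend on the scaling. The Hnf4a to Cebpa ratio of CPM ran from 1.16 to 2.76 with a median of 1.53 in CCl4 mice, and from 0.597 to 2.28 with a median of 0.979 in the others. The Nr5a2 to Hnf4a ratio ran from 0.0871 to 0.156 with a median of 0.115 in CCl4 mice, and from 0.0966 to 0.237 with a median of 0.158 in the others. Both ratios overlapped between the sets.

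**Figure D3:**
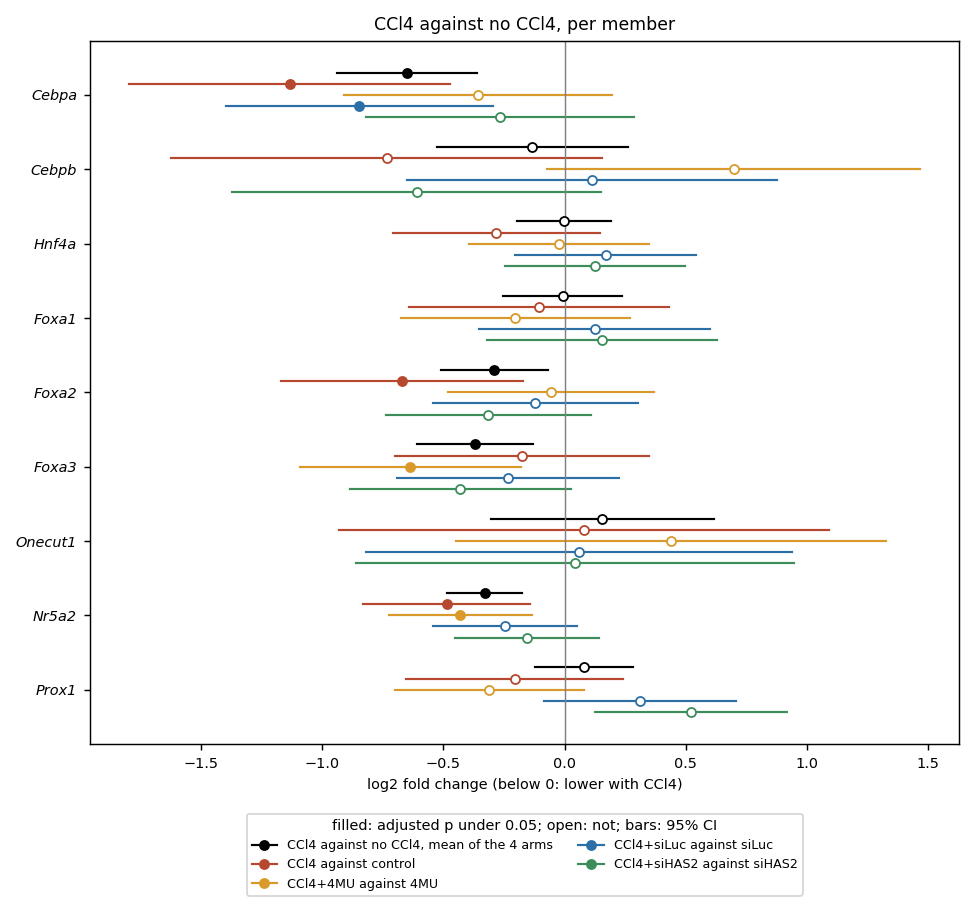
Log2 fold change of each member with CCl4 (x axis), as the mean of the 4 arms (black) and within each arm (colours). Bars are 95% confidence intervals and filled points passed at an adjusted p under 0.05. Cebpa, Nr5a2, Foxa2 and Foxa3 have filled black points below 0, and the Hnf4a average lies at 0.

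Within single arms fewer members passed. In CCl4 against control mice 3 of 9 were lower and 0 higher, where 33.9% of all genes passed and 15.9% were lower. Cebpa was at 666, 436, 447 and 540 CPM in control mice and at 328 and 148 CPM in CCl4 mice, a fold change of 0.456 (log2 -1.13, SE 0.32, adjusted p = 0.0074). Foxa2 was at 23.9, 26.2, 36.2 and 27.8 CPM in control mice against 21.0 and 15 (log2 -0.67, SE 0.24, adjusted p = 0.032). Both CCl4 mice lay below all 4 controls for these 2 genes. The share of all tested genes without overlap is not given for this or any later comparison. Such separations therefore describe these mice and do not set the members apart from other genes. Nr5a2 was at 67.6, 66.9, 66.3 and 81.4 against 53.4 and 47.4 CPM (log2 -0.49, SE 0.16, adjusted p = 0.025), again with no overlap. Cebpb also lay lower in both CCl4 mice, at 46.2 and 31.2 CPM against 58.4, 57.7, 53.0 and 88.1, but did not pass (log2 -0.73, adjusted p = 0.188). Hepatocyte marker sums were 119800 and 193300 CPM in these 2 mice and 216400 to 250700 in the controls. With only CCl4 mouse 1 left, taken to vary like the other groups, 0 of 9 passed and Cebpa had a log2 fold change of -0.65 (adjusted p = 0.248). The Foxa2 call was also lost without control mouse 3 (adjusted p = 0.103), and that of Nr5a2 without control mouse 4 (adjusted p = 0.0748) or CCl4 mouse 1 (adjusted p = 0.0538). With library totals only Cebpa passed (Foxa2 -0.28, adjusted p = 0.339, Nr5a2 -0.079, adjusted p = 0.776), and Nr5a2 was also lost without the low-count filter (adjusted p = 0.117) or fitted on these groups alone (adjusted p = 0.059).

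In CCl4+4MU against 4MU mice 2 of 9 were lower and 0 higher, where 23.6% of all genes passed. Foxa3 was at 42.9, 39.8, 45.5 and 53.6 CPM against 65.0, 79.2 and 68.1 (log2 -0.64, SE 0.22, adjusted p = 0.035). Nr5a2 was at 58.9, 61.4, 54.8 and 49.0 CPM against 92.2, 71.8 and 62.4 (log2 -0.43, SE 0.14, adjusted p = 0.028). All 4 CCl4+4MU mice lay below all 3 4MU mice for these 2 genes. Cebpa did not pass here (log2 -0.36, adjusted p = 0.347), with 4MU mice at 638, 440 and 283 CPM. The Foxa3 call was lost on leaving out any of 4MU mice 1 to 3 (adjusted p = 0.0505, 0.129 and 0.0707) or CCl4+4MU mice 1 to 3 (0.075, 0.0758 and 0.0631), and the Nr5a2 call without 4MU mouse 1 (0.225) or CCl4+4MU mouse 3 (0.0595) or 4 (0.0907). With library totals neither passed (Foxa3 0.069, Nr5a2 0.075), Nr5a2 was lost without the low-count filter (0.147) and on these groups alone (0.0561), and Foxa3 with the replicate number as a block (0.0565). Cebpb, at 48.8, 29.9 and 100 CPM in 4MU mice and at 62.5, 108, 85.4 and 130 with CCl4, did not pass (log2 0.70, adjusted p = 0.177) but was higher without 4MU mouse 3 (1.30, adjusted p = 0.0232).

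In CCl4+siLuc against siLuc mice 1 of 9 was lower and 0 higher, where 24.1% of all genes passed. This was Cebpa, at 232, 298, 321 and 169 CPM against 504, 394 and 479 (log2 -0.85, SE 0.26, adjusted p = 0.020), again without overlap. The call was lost without siLuc mouse 1 (adjusted p = 0.0746) or 3 (0.0515) and without CCl4+siLuc mouse 1 (0.0503) or 4 (0.0804), and without the 3 libraries named above the log2 fold change was -0.60 (0.213). It was also lost on these groups alone (-0.85, adjusted p = 0.0588). In CCl4+siHAS2 against siHAS2 mice edgeR called 0 of 9 and DESeq2 0, with 1 member at an unadjusted p under 0.05, where 12.7% of all genes passed. That member was Prox1, at 123, 154, 123 and 110 CPM against 102, 86.3 and 78.4. All 4 CCl4+siHAS2 mice lay above the siHAS2 mice, and the log2 fold change was 0.52 (SE 0.19, adjusted p = 0.070). It passed without the 3 libraries named above (0.58, adjusted p = 0.0495). Cebpa in this arm was at 440, 299, 253 and 354 CPM against 401, 359 and 454 (log2 -0.27, 95% interval -0.82 to 0.29). Fitted on the compared groups alone, Cebpb (-0.62, adjusted p = 0.0176) and Prox1 (0.51, adjusted p = 0.0323) passed.

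Whether the response to CCl4 differed between arms was tested directly by interaction terms. edgeR called 0 of 9 members for 4MU (5.65% of all genes passed), 0 for siLuc (0.00709%) and 0 for siHAS2 against siLuc (0.0354%), and DESeq2 0 in each. At an unadjusted p under 0.05 there were 1, 0 and 0 members. The single member was Cebpb with 4MU, whose interaction was 1.43 on the log2 scale (95% interval 0.25 to 2.61, adjusted p = 0.116). It passed without 4MU mouse 3 (2.03, adjusted p = 0.0494), and the interaction of Cebpa with 4MU passed without CCl4 mouse 1 (1.46, adjusted p = 0.0432). The differences in calls between arms given above are not shown to be differences in response.

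**Figure D4:**
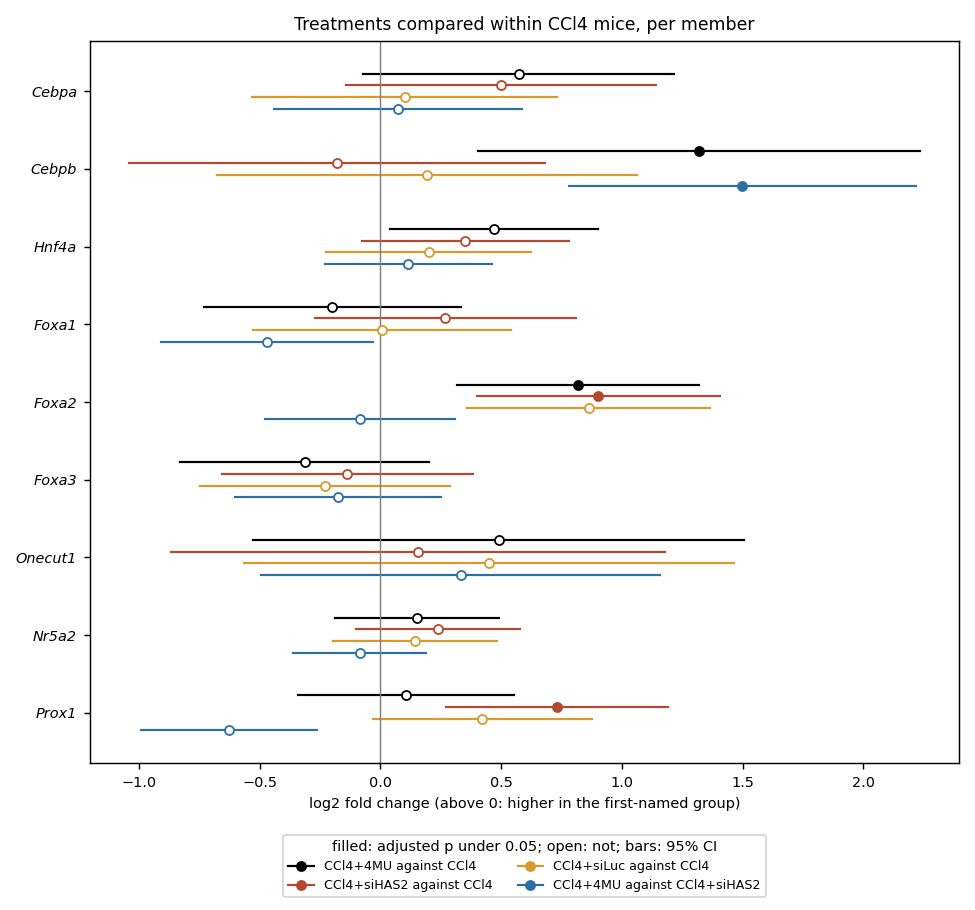
Log2 fold change of each member between treatments among CCl4 mice (x axis, above 0 when higher in the first-named group). Bars are 95% confidence intervals and filled points passed at an adjusted p under 0.05. Foxa2 lies near 0.8 to 0.9 against CCl4 alone under all 3 treatments, and Cebpb stands apart in both comparisons of 4MU.

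The next question was how the treatments of CCl4 mice compare with CCl4 alone. These 3 comparisons share the same 2 CCl4 mice, so their values are given side by side and are not independent. In CCl4+4MU mice 2 of 9 members were higher and 0 lower, where 18.1% of all genes passed and 8.14% were higher. In CCl4+siHAS2 mice 2 of 9 were higher and 0 lower, where 14.3% passed and 7.01% were higher. In CCl4+siLuc mice edgeR called 0 of 9, where 0.262% of genes passed, with 1 member at an unadjusted p under 0.05 and 1 called by DESeq2. Summed hepatocyte markers were at 119800 and 193300 CPM in CCl4 mice, at 216800 to 256000 with 4MU (4 of 12 markers higher, 0 lower), at 155200 to 230300 with siHAS2 (0 higher, 0 lower) and at 170900 to 220200 with siLuc. Of the 4 cell cycle markers 4 were lower with 4MU and 2 with siHAS2. Their part in the values that follow was not tested.

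Foxa2 was at 21.0 and 15 CPM in CCl4 mice. It was at 24.0, 34.9, 30.1 and 37.5 CPM with 4MU, at 38.4, 25.2, 41.1 and 29.1 with siHAS2 and at 34.8, 37.0, 33.6 and 25.2 with siLuc. All 12 treated mice lay above both CCl4 mice. The log2 fold changes were 0.82 (SE 0.24, adjusted p = 0.020) with 4MU, 0.90 (SE 0.24, adjusted p = 0.015) with siHAS2 and 0.86 (SE 0.24, adjusted p = 0.0999) with siLuc. The siLuc value passed in DESeq2 (adjusted p = 0.0315) and without CCl4+siLuc mouse 4 (adjusted p = 0.015), and between siHAS2 and siLuc the difference was 0.041 (95% interval -0.35 to 0.43). Without CCl4 mouse 2 the 4MU and siHAS2 values were 0.56 (adjusted p = 0.322) and 0.65 (adjusted p = 0.293) and neither passed, and the 4MU call was also lost without CCl4+4MU mouse 4 (adjusted p = 0.0567) and with library totals (0.49, adjusted p = 0.11).

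Cebpb was at 46.2 and 31.2 CPM in CCl4 mice and at 62.5, 108, 85.4 and 130 with 4MU, a fold change of 2.50 (log2 1.32, SE 0.44, adjusted p = 0.039). With siHAS2 it was at 41.3, 24.0, 38.1 and 33.2 CPM (log2 -0.18, adjusted p = 0.813), and with siLuc at 28.8, 49.8, 73.7 and 25.1 (log2 0.19, adjusted p = 0.886). All 4 CCl4+4MU mice lay above the CCl4 and CCl4+siHAS2 mice, but not above all siLuc mice. In the direct comparison of CCl4+4MU with CCl4+siHAS2, Cebpb was the only member called, in 1.05% of all genes, at 2.83-fold (log2 1.50, SE 0.34, adjusted p = 0.035). Macrophages also make Cebpb. Monocyte and macrophage markers summed to 344 to 596 CPM in CCl4+4MU mice, 257 to 338 in CCl4 mice and 152 to 243 in CCl4+siHAS2 mice. Lyz2 had the highest counts of these markers (640 to 11852 per library) and so weighs most in the sum. In 4MU against CCl4 alone Lyz2 (log2 1.03), Csf1r, S100a8 and S100a9 lay above 0. Ccr2 (-1.16), Itgam (-1.08), Ly6c2 (-1.02), Cd68, Ptprc and Adgre1 lay below 0. Of the 10 such markers 0 were higher and 1 lower in 4MU against CCl4 alone, and 2 higher and 0 lower in 4MU against siHAS2. Of the 5 Kupffer cell markers 3 were higher and 0 lower in 4MU against siHAS2. Their part in the Cebpb values was not tested.

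The Cebpb calls were lost under several alternatives. That against CCl4 alone was lost without CCl4 mouse 1 (adjusted p = 0.0656) or 2 (0.336) and without CCl4+4MU mouse 2 (0.0685) or 4 (0.094), without the low-count filter (0.121) and with the replicate number as a block (0.0732). That against CCl4+siHAS2 was lost without CCl4+4MU mouse 4 (0.153) or CCl4+siHAS2 mouse 2 (0.116), 3 (0.129) or 4 (0.0839), and without the low-count filter (0.0674). Over all alternatives run, the log2 fold change was 0.996 to 1.62 against CCl4 alone and 1.32 to 1.66 against CCl4+siHAS2.

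Prox1 was at 76.3 and 77.3 CPM in CCl4 mice and at 123, 154, 123 and 110 with siHAS2, a fold change of 1.66 (log2 0.73, SE 0.22, adjusted p = 0.027). It was at 102, 85.6, 83.0 and 60.5 CPM with 4MU (log2 0.11, adjusted p = 0.756) and at 97.8, 111, 82.8 and 120 with siLuc (log2 0.42, adjusted p = 0.382). All CCl4+siHAS2 mice lay above the CCl4+4MU mice, with a log2 fold change of -0.63 for 4MU against siHAS2 (adjusted p = 0.069, and 0.0246 in DESeq2). Against CCl4+siLuc, the matched nanoparticle control, edgeR and DESeq2 called 0 of 9 members, with 0 at an unadjusted p under 0.05, where 1.08% of all genes passed. There Prox1 differed by 0.31 (95% interval -0.054 to 0.67). Lymphatic endothelium also makes Prox1. Its 4 markers summed to 5.88 to 9.31 CPM in CCl4+siHAS2 mice and to 13.1 to 16.2 in CCl4 mice, with 0 of the 3 tested called. Their part in the Prox1 values was not tested. The Prox1 call against CCl4 alone was lost without CCl4 mouse 1 (adjusted p = 0.102) or 2 (0.218) and without CCl4+siHAS2 mouse 2 (0.0658), and with library totals (0.56, 0.147).

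Hnf4a lay at 383 and 404 CPM in CCl4 mice and at 532, 550, 535 and 563 in CCl4+4MU mice. The groups did not overlap, and the difference of 0.47 (95% interval 0.039 to 0.90) did not pass over all genes (adjusted p = 0.109). With siHAS2 it lay at 512, 531, 423 and 544 CPM (log2 0.35, adjusted p = 0.255). Cebpa was at 378, 296, 366 and 377 CPM with 4MU against 328 and 148 (log2 0.57, adjusted p = 0.192), and with siHAS2 the log2 fold change was 0.50 (adjusted p = 0.285). Without CCl4 mouse 1, taking CCl4 mouse 2 to vary like the other groups, both passed (1.24, adjusted p = 0.0267, and 1.18, adjusted p = 0.0391). Foxa1, Foxa3, Onecut1 and Nr5a2 had adjusted p-values of at least 0.338 in both of these comparisons, although Foxa3 was lower in all CCl4+4MU mice (39.8 to 53.6 CPM) than in the CCl4 mice (55.9 and 57.1).

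In mice without CCl4 the treatments were compared to ask whether they act on these genes in uninjured liver. edgeR and DESeq2 called 0 of 9 for 4MU against control (0.00709% of all genes passed), 0 for siLuc against control (0.205%) and 0 for siHAS2 against siLuc (0.0638%), each with 0 members at an unadjusted p under 0.05. For Cebpa the 95% interval of the log2 fold change was -0.76 to 0.35 with 4MU and -0.77 to 0.41 for siHAS2 against siLuc, so a moderate change was not detectable with 3 or 4 mice. For Hnf4a the intervals were -0.16 to 0.58 and -0.20 to 0.59. Cebpb lay lower in all siLuc mice (26.7, 48.5 and 47.5 CPM) than in all control mice, without passing (log2 -0.65, adjusted p = 0.841). siHAS2 was not tested against control. Foxa2 lay at 39.3 to 43.1 CPM in siHAS2 mice and at 23.9 to 36.2 in control mice, without overlap. In siLuc mice Foxa2 lay at 29.3 to 46.3 CPM.

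**Figure D5:**
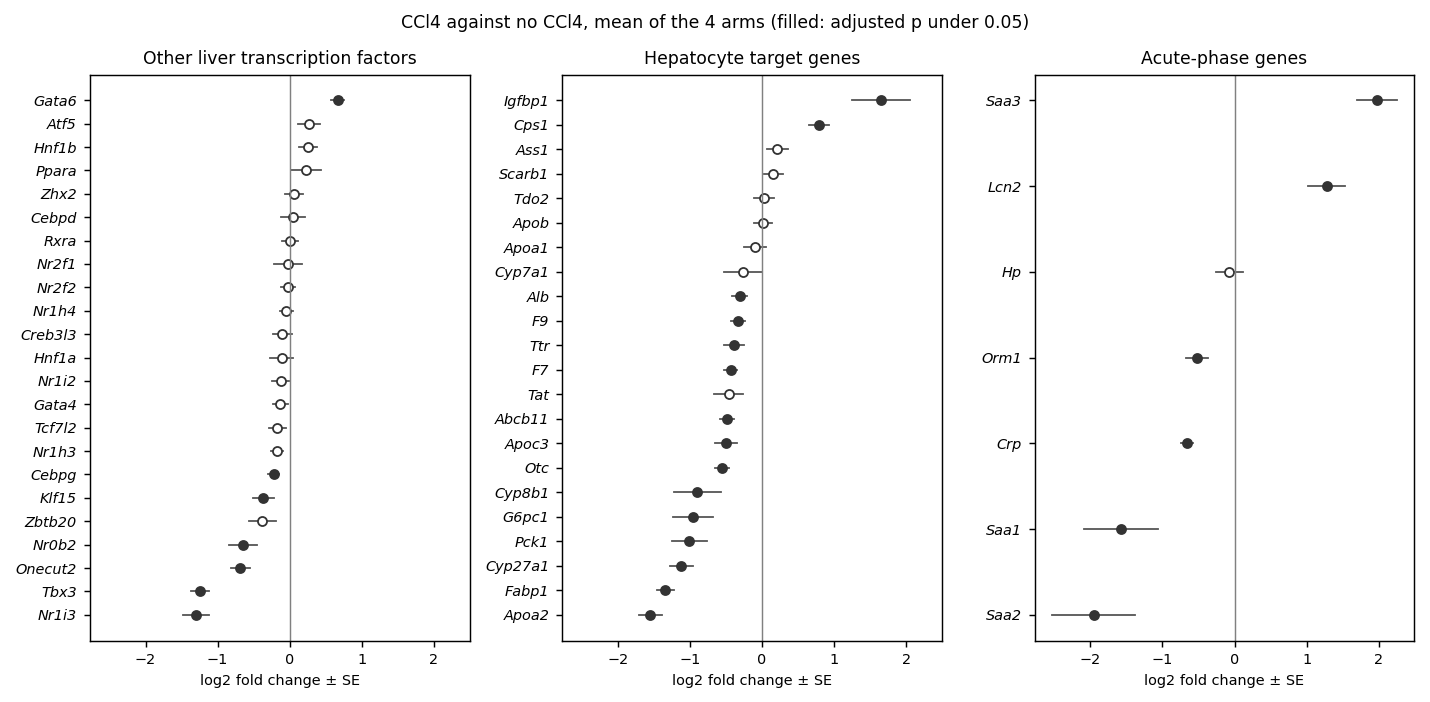
Log2 fold change with CCl4 as the mean of the 4 arms (x axis, bars 1 SE) for other liver transcription factors, known hepatocyte target genes and acute-phase genes. Filled points passed at an adjusted p under 0.05. Nr1i3 and Tbx3 lie lowest among the factors, Apoa2 and Fabp1 among the targets and Saa2 and Saa1 among the acute-phase genes.

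Genes around the members were described from lists of known roles. Among 23 other liver transcription factors 6 were lower and 1 higher in the CCl4 average, with a median of -0.11 beside -0.015 over all genes. Of all genes 51.7% passed and 25.5% were lower there, so calls were no more common in this list than among genes at large. Nr1i3 (CAR, a xenobiotic receptor) had -1.30 (adjusted p = 2.5e-06), Tbx3, a factor of pericentral hepatocytes, -1.24 (adjusted p = 1.5e-08) and Onecut2, the relative of Onecut1, -0.68 (adjusted p = 0.00014). Gata6 was higher by 0.67 (adjusted p = 7.3e-07). With library totals alone the counts were 4 lower and 3 higher and the median 0.062, above 0.

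Of the 23 hepatocyte target genes 22 were tested, and 13 were lower and 2 higher, with a median of -0.41, where 51.7% of all genes passed and 25.5% were lower. Fabp1 (fatty acid binding) had -1.34 (adjusted p = 1.4e-09), Apoa2 (an HDL apolipoprotein) -1.55 (adjusted p = 9.8e-09) and Cyp27a1 (bile acid synthesis) -1.12 (adjusted p = 2.2e-06). Cps1, the urea cycle's entry enzyme, was higher by 0.79 (adjusted p = 3.8e-05). With library totals alone 9 were lower and 4 higher. Of the 8 acute-phase genes known to be CEBPB targets 7 were tested, with 4 lower and 2 higher against the same background. Crp had -0.66 (adjusted p = 7.4e-07) and Orm1 -0.52 (adjusted p = 0.0071), while Saa3 was higher by 1.98 (adjusted p = 4e-06) and Lcn2 by 1.28 (adjusted p = 0.00022), so the list held calls in both directions.

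In CCl4+4MU against CCl4 mice 10 of the 22 target genes were higher and 1 lower, and 6 of the 23 other factors were higher and 0 lower, where 18.1% of all genes passed and 8.14% were higher. With library totals alone 8 targets were higher and 1 lower (median 0.45), and 3 factors were higher and 2 lower (median -0.053). Cyp27a1 was higher by 1.58 (adjusted p = 0.0055), Otc, a urea cycle enzyme, by 0.97 (adjusted p = 0.0068), Nr1i3 by 1.86 (adjusted p = 0.0055) and Nr1h4 (FXR, the bile acid receptor) by 0.72 (adjusted p = 0.014). The 1 lower gene, named after its value was seen, was Fabp1 at -0.79 (adjusted p = 0.033). Of the 7 acute-phase genes 2 were higher, Orm1 (1.33, adjusted p = 0.014) and Crp (0.71, adjusted p = 0.015). In CCl4+siHAS2 against CCl4 mice 4 target genes were higher and 0 lower, and of the other factors 4 were higher and 1 lower, where 14.3% of all genes passed and 7.01% were higher. Tbx3 was higher by 1.65 (adjusted p = 0.0017), Cyp7a1, the rate-limiting enzyme of bile acid synthesis, by 2.51 (adjusted p = 0.015) and Abcb11, the bile salt export pump, by 0.95 (adjusted p = 0.0092). In CCl4+siLuc against CCl4 mice, which share the same 2 CCl4 mice, 0 genes of either list passed, and the values were 1.07 for Tbx3 (adjusted p = 0.0999), 2.11 for Cyp7a1 (adjusted p = 0.135) and 0.74 for Abcb11 (adjusted p = 0.135). In the direct comparison of CCl4+siHAS2 with CCl4+siLuc mice edgeR called 0 genes of either list. The 1 lower factor, also named after its value was seen, was Cebpd at -1.03 (adjusted p = 0.0475). Without CCl4 mouse 2, taking CCl4 mouse 1 to vary like the other groups, 0 genes of either list passed in both comparisons.

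Transcripts that lie across the members' loci were counted too. Hnf4aos, an antisense non-coding RNA within the Hnf4a locus that shares 0 exon bases with it, had a log2 fold change of -1.90 in the CCl4 average (adjusted p = 7.5e-06), at 2 to 161 counts per library. Prox1os, antisense to Prox1, had -1.18 (adjusted p = 5.4e-06), at 15 to 152 counts. Both fell while Hnf4a and Prox1 themselves did not pass. Gm45091, a non-coding RNA antisense to Cebpa, had -0.78 (edgeR adjusted p = 0.0035), at 4 to 47 counts, and Cebpa fell too. Gm45091 shares 51 exon bases with Cebpa, 1.93% of those of Cebpa. Prox1os covers 10.9% of the Prox1 exon bases, and without a stated strand setting their reads cannot be told apart there. Peds1 covers 20.7% of the Cebpb exon bases on the opposite strand (log2 -0.20, adjusted p = 0.181) and Gm20649 covers 37.4% of those of Onecut1 on its own strand, at 0 counts in all libraries, so Cebpb and Onecut1 counts may miss reads from these stretches. Hnf4a, Cebpa and the FOXA genes shared 0 windows of 85 bases with transcripts of any other gene.

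Likeness across the 27 libraries was measured as the root mean square difference of centred log2 CPM, where a smaller value means a closer pattern. It is a description, since libraries of a group share their treatment. The gene closest to Cebpa was Dgat2, the last enzyme of triglyceride synthesis, at 0.163, where the median over all genes was 0.583. Cebpb was closest to its relative Cebpd at 0.377 (median 0.721), and Nr5a2 to the copper transporter gene Slc31a1 at 0.123 and the glucocorticoid receptor gene Nr3c1 at 0.136 (median 0.392). Hnf4a was closest to Tbc1d14 at 0.150, Prox1 to Scaf8 at 0.198, Foxa3 to Mrpl47 at 0.223, Foxa1 to Mosmo at 0.239, Foxa2 to Ggact at 0.247 and Onecut1 to Plce1 at 0.410. Among the members themselves the closest pair was Hnf4a and Nr5a2 at 0.315 and the farthest Cebpb and Onecut1 at 0.878. No member was among the 3 genes closest to another.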

How the data were processed

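RNA from 27 mouse livers was sequenced as directional poly(A) libraries (paired-end, at least 85 bases). The authors trimmed reads with Trimmomatic 0.39, aligned them to GRCm39 with HISAT2 (version not given in the sources used here) and counted read pairs per Ensembl gene with featureCounts in R 3.4.2, leaving out multimapping reads. The strand setting is not stated. The deposited values are raw counts, not normalised or filtered. Symbols and positions came from GENCODE vM39, which matched 54749 of 55414 identifiers.

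Genes averaging 10 or more counts over the libraries were tested in R 4.3.3 with edgeR 4.0.16 (TMM, robust quasi-likelihood fit of all 8 groups, Benjamini-Hochberg adjustment over 14114 genes, threshold 0.05). Intervals of 95% use 19 residual degrees of freedom. The alternatives were DESeq2 1.42.0, its size factors in edgeR, library totals alone, no low-count filter, only the compared groups, the replicate number as a block, each mouse left out and, chosen after seeing the data, 3 libraries left out together. Scripts were tested on simulated data. Likeness used log2(CPM + 0.5). Figures were drawn with matplotlib 3.10.9 in Python 3.11.15.

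The members and gene lists were chosen with earlier results of these data known. Named genes were all members, up to 4 genes per list with the smallest adjusted p in the comparison described, any marker, the 3 genes closest to each member and genes overlapping a member. No libraries of a group agreed within sampling noise (chi-square per degree of freedom 16.8 to 458).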

Additional observations from a re-analysis of the deposited data

Results flagged for a closer look

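In groups of 4 mice, 2 values of members lay so far from the other 3 that the gap exceeded Dixon's 95% critical value. Chance gives about 5% of such groups, and 36 were examined. Cebpa was at 296 CPM in CCl4+4MU mouse 2, below 366 to 378 CPM in the other 3 mice (gap ratio 0.867), and Nr5a2 was at 81.4 CPM in control mouse 4, above 66.3 to 67.6 CPM in the other 3 (gap ratio 0.908). Without control mouse 4 the log2 fold change of Nr5a2 in CCl4 against control mice was -0.40 (adjusted p = 0.0748), and it no longer passed. No interaction of a treatment with CCl4 passed for any member in edgeR.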

How the results depend on the processing

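With library totals in place of TMM scaling, 1 member passed in the CCl4 average, 1 in CCl4 against control, 0 in CCl4+4MU against 4MU, 1 in CCl4+siHAS2 against siHAS2, 1 in CCl4+4MU against CCl4 and 1 in CCl4+siHAS2 against CCl4, and the average log2 fold changes of Hnf4a (0.17), Foxa1 (0.18) and Cebpb (0.017) turned above 0. Of all genes called, the share that was lower then moved from 49.3% to 25.4% in the CCl4 average, from 47% to 15.6% in CCl4 against control, from 55% to 87.1% in CCl4+4MU against CCl4 from 50.9% to 71.4% in CCl4+siHAS2 against CCl4, from 46.1% to 33.8% in CCl4+siLuc against siLuc, from 39.4% to 16.5% in CCl4+siHAS2 against siHAS2 and from 38.5% to 70.1% in CCl4+4MU against CCl4+siHAS2. DESeq2 called 1 member in CCl4+siLuc against CCl4 and 2 in CCl4+4MU against CCl4+siHAS2. Without the low-count filter 1 passed in CCl4+4MU against 4MU, 1 in CCl4+4MU against CCl4 and 0 in CCl4+4MU against CCl4+siHAS2. Fitted on the compared groups alone, 1 passed in CCl4+4MU against 4MU, 0 in CCl4+siLuc against siLuc and 2 in CCl4+siHAS2 against siHAS2, and Hnf4a (0.031) and Cebpb (0.014) turned above 0 in the CCl4 average. Without the 3 libraries chosen after seeing the data, 0 passed in CCl4+siLuc against siLuc, 1 in CCl4+siHAS2 against siHAS2 and 1 in CCl4+siLuc against CCl4. The cause of these shifts was not tested. The share of all genes that passed under each alternative setting, or with 1 mouse left out, is not given. These counts of members are therefore not set against genes at large.

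Replicate numbers were shared between groups and were not taken to pair the mice. Over 83 same-numbered pairs the median correlation of deviations from the group means was -0.019, and 18 were over 0.1. Over 234 pairs with other numbers the median was -0.013, and 66 were over 0.1. With so few mice per group these values cannot decide whether mice of the same number were paired. With the replicate number as a block 1 member passed in CCl4+4MU against 4MU and 1 in CCl4+4MU against CCl4, Foxa1 had 0.022 in the CCl4 average, and the counts of the other 14 comparisons did not change.

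With 1 mouse left out at a time, the members called were 0 to 3 in CCl4 against control, 0 to 2 in CCl4+4MU against 4MU, 0 to 1 in CCl4+siLuc against siLuc, 0 to 2 in CCl4+4MU against CCl4, 0 to 2 in CCl4+siHAS2 against CCl4, 0 to 1 in CCl4+siLuc against CCl4, 0 to 1 in CCl4+4MU against CCl4+siHAS2 and 0 to 1 in the 4MU interaction. In the CCl4 average the log2 fold change then ran from -0.046 to 0.034 for Hnf4a, from -0.074 to 0.063 for Foxa1 and from -0.22 to 0.015 for Cebpb. Leaving out a CCl4 mouse leaves 1 in that group, taken to vary like the others. The 2 CCl4 mice limit each comparison with CCl4 alone, and counts of 35 to 260 limit Onecut1.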
